A study of Mus musculus with 6 samples.

Results

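The genes described here are 43 genes of the extracellular matrix, chosen by name from the 37620 genes counted in 6 samples of ribosome-bound mRNA from the adult mouse dentate gyrus. They were taken in 6 groups, namely 6 fibrillar collagens, 5 other interstitial collagens, 16 basement membrane genes, 6 genes of fibronectin and elastic fibres, 5 small leucine-rich proteoglycans and Sparc, and 5 genes of brain matrix (Tnc, Vcan, Ncan, Bcan and Sparcl1). Of the 43, all passed the filter on low values, and Col15a1 passed it in 2 of the 6 samples only. The samples came from Gli1CreERT2:Rpl22HA f/+ mice that were either Klf9 +/+ or Klf9 f/f, with 3 samples of each genotype. Tamoxifen was given to all mice at the age of 2 to 3 months, in 3 injections 12 hr apart, and each sample pooled 6 dentate gyri of 3 mice taken 4 days after the last one. Both genotypes therefore carry the same driver and the same hemagglutinin tag on ribosomal protein RPL22, and by the study's methods the Klf9 line was backcrossed to C57BL/6J. The question was which transcripts on tagged ribosomes differ once Klf9, a Krüppel-like transcription factor, is recombined in radial-glial stem cells (RGLs) of the Gli1 lineage. The study's discussion names astrocytes beside RGLs as targets of the driver, and its estimates of Klf9 recombination in the targeted cells are partial.

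Matrix proteins are secreted, and they are grouped by where they assemble. Fibrillar collagens form the tensile fibres of connective tissue, which in the brain are largely made by fibroblasts of the meninges and around vessels. Laminins, type IV collagen, nidogens and the heparan sulfate proteoglycans perlecan and agrin build the basement membranes that sheathe vessels and the pial surface and that astrocyte endfeet and stem cell processes touch. The parenchyma itself holds a matrix of chondroitin sulfate proteoglycans (lecticans such as brevican, neurocan and versican), tenascin C and hyaluronan, made in good part by glia.

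Reads counted on genes numbered from 21594714 to 66343759 per sample. By their library names, replicates 1 and 2 of either genotype belong to series YTa22 and both replicates 3 to series YTa32, whose 2 libraries are the shallowest. Replicate numbers are running numbers and pair no samples. Levels are CPM, read counts per fixed library total after TMM scaling, and levels between genes are compared as CPM per kb of annotated exon. Log2 fold changes give Klf9 f/f relative to Klf9 +/+ and come from edgeR's quasi-likelihood test with the library series as a term, and a gene was called at a change of at least 1.2-fold with an unadjusted p under 0.05, the threshold of the study's methods. Of 15056 genes tested, 376 were called lower and 274 higher, 650 had an unadjusted p under 0.05, and 0 had a Benjamini-Hochberg adjusted p under 0.05 (smallest 0.0683). Klf9 itself was at 200.9, 203.9 and 139.0 CPM in the Klf9 +/+ samples against 114.3, 121.3 and 120.0 CPM in the Klf9 f/f samples. All 11 markers of radial glia-like stem cells on a fixed list were detected, with a summed level of 2731 to 3903 CPM per sample.

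The matrix genes spanned a wide range of levels. In Klf9 +/+ samples the highest were Sparcl1, a secreted glycoprotein of astrocytes also known as hevin, at 839 ± 21.4 CPM per kb (SD, n = 3), and its relative Sparc, a collagen-binding secreted glycoprotein, at 819 ± 320 CPM per kb (SD, n = 3). Their order does not exceed the spread of Sparc. Next came Dcn (decorin, a small proteoglycan that binds collagen fibrils) at 231 ± 76.4 CPM per kb (SD, n = 3) and Bcan (brevican) at 106 ± 21.0 CPM per kb (SD, n = 3). Lum (lumican) at 47.2 ± 28.6 and Fbln1 (fibulin 1) at 44.3 ± 4.73 CPM per kb (SD, n = 3) did not differ beyond their spread, and neither did Ncan (neurocan) at 29.8 ± 12 and Bgn (biglycan) at 26.4 ± 6.06. The leading fibrillar collagen, Col1a1, was at 14.6 ± 10.2, and the leading basement membrane gene, Lamb2 (laminin beta 2), was at 12.8 ± 5.27 CPM per kb (SD, n = 3). The lowest were Col15a1 at 0.157, Fbn1 (fibrillin 1) at 0.268, Hspg2 (perlecan) at 0.510 and Vcan (versican) at 0.552 CPM per kb. The group medians in Klf9 +/+ samples ran from 1.73 CPM per kb in the other interstitial collagens to 47.2 CPM per kb in the small proteoglycans and Sparc, with 2.95 in the fibrillar collagens, 2.49 in the basement membrane genes, 4.71 in fibronectin and elastic fibre genes and 29.8 in brain matrix.

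**Figure D1:**
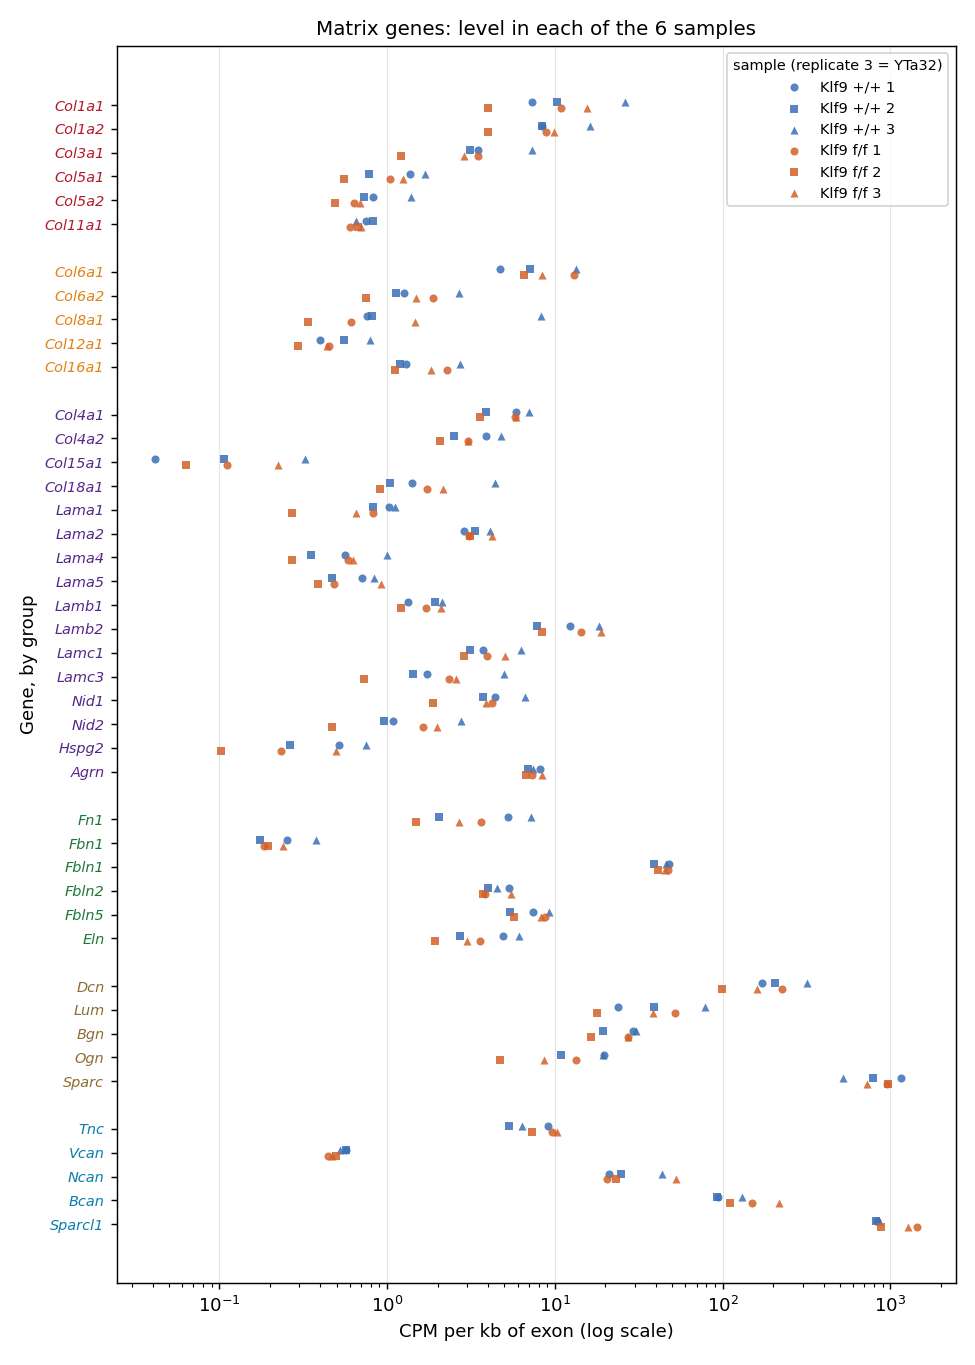
Level of each of the 43 matrix genes in each sample, in CPM per kb of exon on a log scale, with blue points for Klf9 +/+ and orange points for Klf9 f/f, and with circles, squares and triangles for replicates 1, 2 and 3. Klf9 +/+ replicate 3 (blue triangle) is the highest point and Klf9 f/f replicate 2 (orange square) the lowest in most rows above the brain matrix group at the bottom.

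Between genotypes, 4 of the 43 genes were called lower in Klf9 f/f (Col5a2, Col8a1, Hspg2 and Ogn), where 2.50% of all genes tested were, and 2 were called higher (Bcan and Sparcl1), where 1.82% were. The genes called lower were spread over 4 groups and both genes called higher were brain matrix. After adjustment over all genes tested, 0 of the 43 passed in edgeR's quasi-likelihood test, with 6 at an unadjusted p under 0.05, and 0 passed in the likelihood-ratio test and in DESeq2. Over all genes, 58 passed in the likelihood-ratio test and 39 in DESeq2. The 38 genes outside the brain matrix group had a median change of -0.26 on the log2 scale, with 31 of 38 below 0, and the 5 brain matrix genes had one of 0.38, with 4 of 5 above 0. The median over all genes tested was 0.00084. Fewer cells of a type and less RNA per cell cannot be told apart in these pooled samples.

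The genotypes overlapped when the 38 genes were averaged. Their mean log2 CPM was 4.45, 4.22 and 5.19 in Klf9 +/+ replicates 1, 2 and 3, and 4.50, 3.67 and 4.60 in Klf9 f/f replicates 1, 2 and 3. Klf9 f/f replicate 1 thus lay above both Klf9 +/+ samples of its series, and Klf9 f/f replicate 2 below all others. Klf9 f/f replicate 2 was the lowest of the 6 samples in 29 of the 38 genes, against 16.1% of all genes tested, and Klf9 +/+ replicate 3 was the highest in 29 of the 38, against 20.8%. The count called lower moved with the library left out, and so did the share over all genes. It was 21 without Klf9 f/f replicate 1 (4.79% of all genes tested in that fit), 7 without Klf9 +/+ replicate 2 (3.60%) and 3 without Klf9 +/+ replicate 1 (2.06%). It was 2 without Klf9 f/f replicate 2 (1.83%) or 3 (1.47%) and 1 without Klf9 +/+ replicate 3 (1.41%). The count thus ran from 1 to 21 of the 43 genes and the share from 1.41% to 4.79%. Whether the counts differ from these shares was not tested. The median of the 38 genes was -0.70 without Klf9 f/f replicate 1 and -0.083 without Klf9 f/f replicate 2. The count called higher was 4 without Klf9 +/+ replicate 1 (2.26% of all genes), 2 without Klf9 f/f replicate 2 (3.28%), and 1 without any of the others (0.866% to 1.24%). Without either replicate 3 the genotype effect rests on series YTa22 alone, and the gene called higher was then Col6a1.

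**Figure D2:**
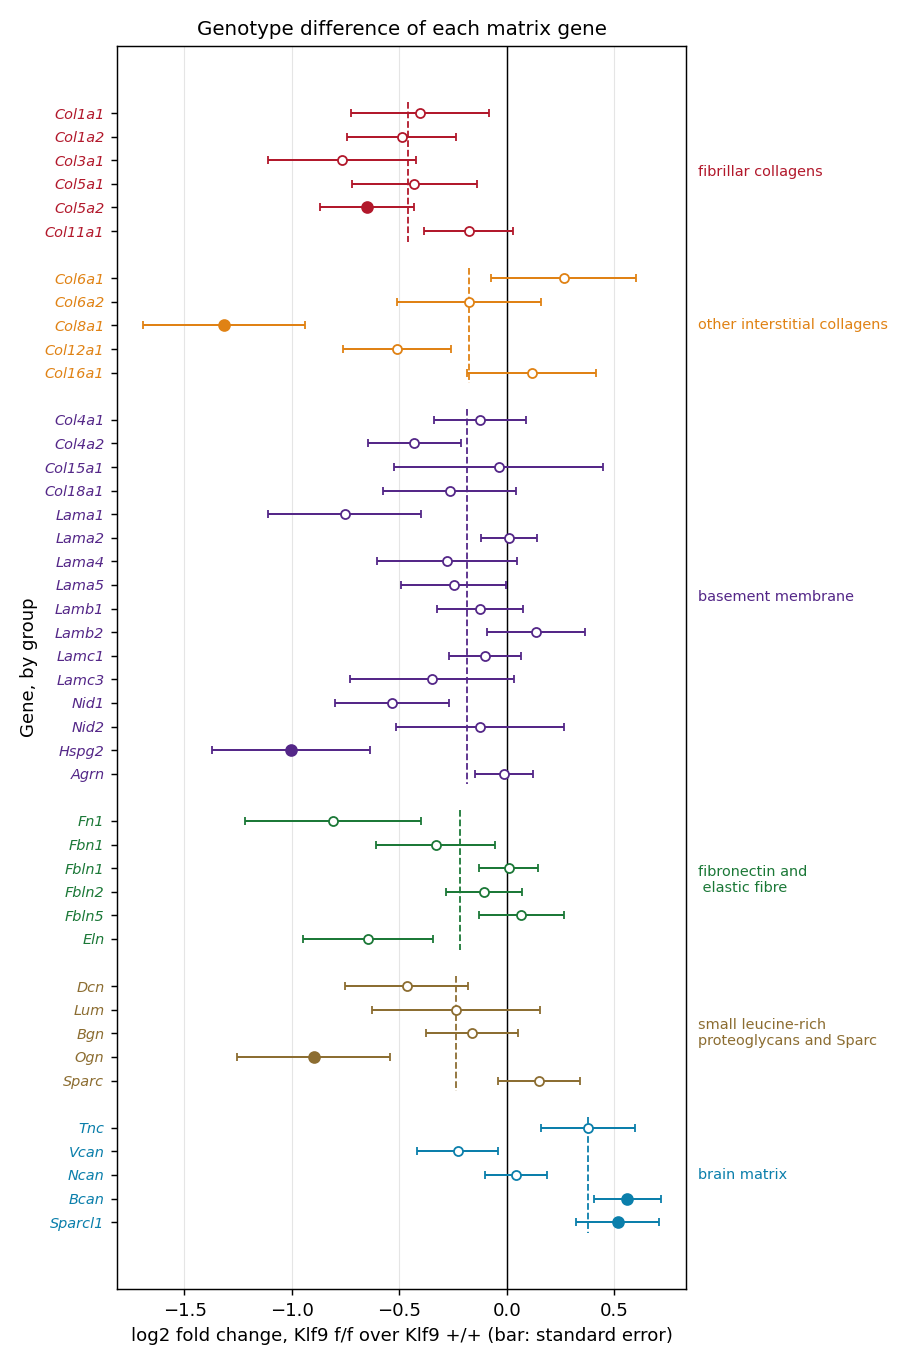
Log2 fold change of each matrix gene, Klf9 f/f over Klf9 +/+, with its standard error as a bar, filled for the called genes, and with the median of each group as a dashed line. The 4 filled points left of 0 lie in 4 different groups, and the 2 filled points right of 0, Bcan and Sparcl1, are both brain matrix.

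Markers of meningeal, vascular and choroid plexus cells varied across the same samples. For these and the other marker lists below, the main fit called 2.50% of all genes tested lower and 1.82% higher. A list of 12 meningeal fibroblast markers that holds no matrix gene summed to 326, 257 and 578 CPM in Klf9 +/+ replicates 1 to 3 and to 348, 147 and 353 CPM in Klf9 f/f replicates 1 to 3, with 4 of 12 called lower, 0 higher and a median change of -0.56 on the log2 scale. Its leading genes Slc6a13, Aldh1a2 and Slc22a6 were all lowest in Klf9 f/f replicate 2, at 38.2, 35.1 and 17.0 CPM, and highest in Klf9 +/+ replicate 3, at 118, 116 and 73.2 CPM. The 16 endothelial markers summed to 214 to 533 CPM in Klf9 +/+ and 95.9 to 336 CPM in Klf9 f/f, with 4 of 16 called lower and a median of -1.02, and their leading genes were Ly6c1, Flt1 and Slco1a4. The 12 mural cell markers, led by Vtn, Acta2 and Rgs5, summed to 592 to 1119 and 447 to 766 CPM, with 7 of 12 called lower and a median of -0.84. The 13 choroid plexus markers summed to 150 to 2774 CPM in Klf9 +/+ and 28.6 to 425 CPM in Klf9 f/f. All 13 were called lower, with a median change of -2.60 on the log2 scale, and transthyretin (Ttr) led them, ahead of Clic6 and Kcnj13.

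Astrocyte markers went the other way. The 14 astrocyte markers, led by Aldoc, Slc1a3 and Gfap, summed to 14412 to 18751 CPM in Klf9 +/+ and 18005 to 22279 CPM in Klf9 f/f, with 5 of 14 called higher, 0 lower and a median of 0.36. Of 11 radial glia-like markers, led by Hopx, Fabp7 and Vim, 1 was called higher. None of 11 granule neuron markers (1511 to 2194 CPM and 1562 to 1740 CPM, led by Snap25, Neurod1 and Slc17a7) and none of 9 microglial markers (140 to 177 CPM and 151 to 197 CPM, Tmem119 and C1qb among them) was called. Oligodendrocyte markers (555 to 798 CPM and 578 to 746 CPM, Mbp and Cnp among them) had 1 of 8 called in each direction, and precursor markers (56.2 to 92.8 CPM and 56.8 to 92.5 CPM, led by Olig1, Pdgfra and Cspg4) had 1 of 6 called higher. With the mean level of the meningeal markers as a covariate, the median of the 38 matrix genes was 0.024 with 1 gene called lower and 6 of all 43 higher, and with that of the endothelial and mural markers it was 0.059 with the same counts. Over all genes tested, 4.95% were called lower and 5.34% higher with the former covariate, and 5.04% and 4.67% with the latter. With either, 1 of 43 lower is below the share of all genes and 6 of 43 higher is above it. Neither difference was tested. All 12 meningeal, 16 endothelial and 12 mural markers had a log2 fold change below 0, so neither covariate is independent of genotype. These fits also take out genotype difference that the markers share, and they have fewer residual degrees of freedom than the main fit. The part of any of these cells in the matrix differences was not tested.

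**Figure D3:**
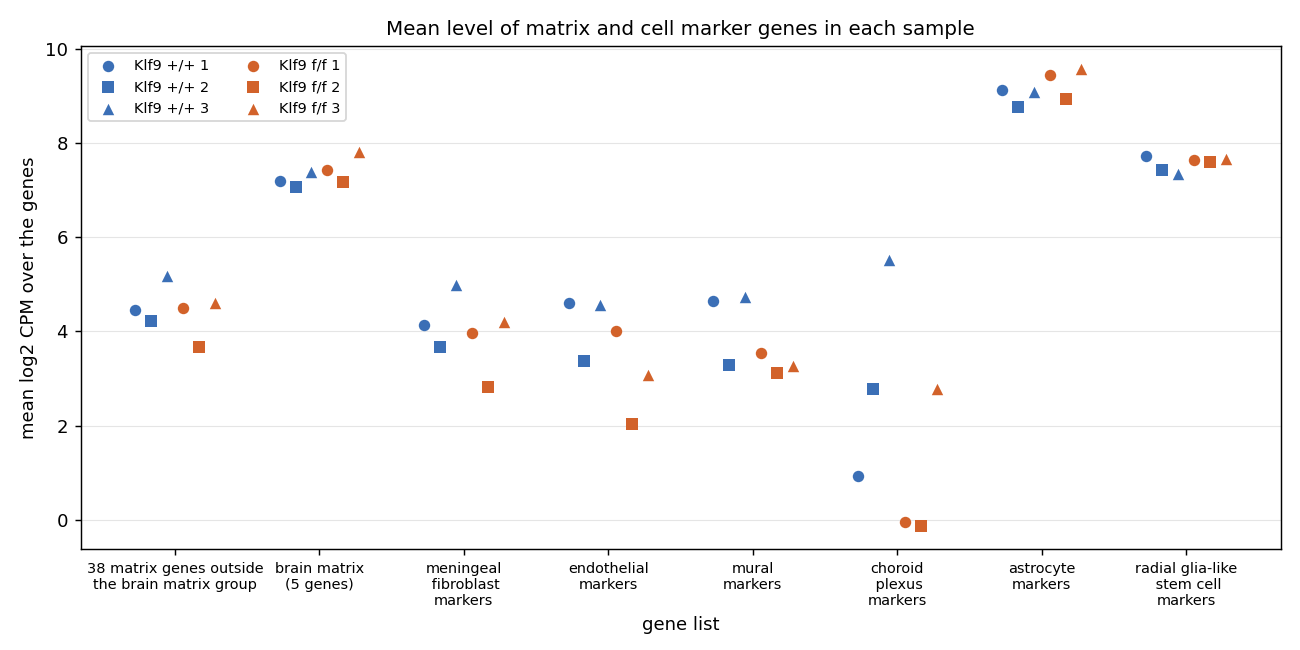
Mean log2 CPM over the genes of each list in each sample, for the 38 matrix genes outside the brain matrix group, the 5 brain matrix genes and 6 lists of cell markers, with colours and shapes as in the plot of levels by sample. The orange square (Klf9 f/f replicate 2) is lowest for the 38 matrix genes and for the meningeal, endothelial and mural markers. It is also lowest for the choroid plexus markers, at -0.14 against -0.045 in Klf9 f/f replicate 1. The brain matrix and astrocyte lists do not show that order.

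All 6 fibrillar collagens had a log2 fold change below 0, from -0.77 to -0.18, and 1 was called. Col5a2, the alpha 2 chain of the type V collagen that regulates fibril diameter (ENSMUSG00000026042, chromosome 1 of mm9, 45431166 to 45560127, minus strand), was at 7.90, 6.99 and 13.4 CPM in Klf9 +/+ against 6.04, 4.69 and 6.59 CPM in Klf9 f/f. Each Klf9 f/f sample was below all of the Klf9 +/+ samples, with a log2 fold change of -0.65 (adjusted p = 1.00 in edgeR's quasi-likelihood test, standard error 0.22). The call was lost without either replicate 3, in YTa22 alone, without the series term and with either marker covariate, and the fold change stayed at -0.82 to -0.47 with each sample left out. Its neighbour Col3a1, the type III chain that starts the same cluster 24.6 kb away, was at 29.2, 26.3 and 61.0 CPM in Klf9 +/+ against 29.4, 10.1 and 24.1 CPM in Klf9 f/f. The log2 fold change of -0.77 (standard error 0.35) was larger in size than that of Col5a2 but was not called.

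Col1a1, the type I chain with the highest level of the group, was at 47.7, 67.3 and 173 CPM in Klf9 +/+ against 71.8, 26.3 and 102 CPM in Klf9 f/f, so that the genotypes overlapped (log2 fold change -0.40, standard error 0.32). Its partner chain Col1a2 had a log2 fold change of -0.49 and the type V chain Col5a1 one of -0.43. The ratio of Col1a1 to Col1a2 CPM ran from 0.468 to 0.878 over the samples and was lowest in Klf9 +/+ replicate 1. Col11a1, a minor chain of type XI fibrils, was at 5.77 to 7.95 CPM in all samples and stood apart from the others in that Klf9 +/+ replicate 3 was not its highest sample.

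Among the other interstitial collagens, Col8a1 had the lowest log2 fold change of all 43 genes. Col8a1 encodes the alpha 1 chain of type VIII collagen, a network-forming collagen of vessel walls and of Descemet's membrane (ENSMUSG00000068196, chromosome 16, 57624371 to 57754850, minus strand). It was at 3.88, 4.14 and 42.1 CPM in Klf9 +/+ against 3.11, 1.73 and 7.48 CPM in Klf9 f/f. Both series YTa32 libraries were above all YTa22 libraries, and Klf9 +/+ replicate 3 was far above the rest. The log2 fold change was -1.32 (adjusted p = 0.959 in edgeR's quasi-likelihood test, standard error 0.38), with -0.78 in YTa22 and -2.49 in YTa32. With each sample left out it ranged from -1.79 (without Klf9 f/f replicate 1) to -0.72 (without Klf9 f/f replicate 3). The call was lost without Klf9 +/+ replicate 3, in YTa22 alone and without the series term, where the log2 fold change was larger in size at -2.04. It was kept with either marker covariate. The partner chain Col8a2, which is not among the 43, showed the same high sample, at 1.17, 2.12 and 32.8 CPM in Klf9 +/+ against 1.13, 0.442 and 7.38 CPM in Klf9 f/f, as did the choroid plexus gene Ttr at 109, 655 and 2270 against 4.57, 7.07 and 342 CPM.

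Col6a1, a chain of the beaded type VI filaments and the highest of this group per kb, was at 20.8, 31.1 and 58.6 CPM in Klf9 +/+ against 56.7, 28.9 and 36.6 CPM in Klf9 f/f. The genotypes overlapped, and the series went opposite ways, with log2 differences of 0.67 in YTa22 and -0.68 in YTa32. Its fitted log2 fold change of 0.27 (standard error 0.34) was not called. Col6a2, which lies 85.2 kb from it, was at -0.18, and the ratio of Col6a1 to Col6a2 CPM ran from 1.98 to 4.62 over the samples. Col12a1, a collagen with interrupted helices that decorates fibrils, was at -0.51 and its relative Col16a1 at 0.12, neither called.

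Of the 16 basement membrane genes, 14 had a log2 fold change below 0, with a median of -0.19, and 1 was called. Hspg2, the core protein of perlecan (ENSMUSG00000028763, chromosome 4, 137024634 to 137126545, plus strand), was at 7.42, 3.81 and 10.7 CPM in Klf9 +/+ against 3.36, 1.47 and 7.12 CPM in Klf9 f/f. Within each series every Klf9 f/f sample was below every Klf9 +/+ sample, although Klf9 f/f replicate 3 was above Klf9 +/+ replicate 2 of the other series. The log2 fold change was -1.00 (adjusted p = 1.00 in edgeR's quasi-likelihood test, standard error 0.37) and ranged from -1.31 to -0.63 with each sample left out. The call was lost without Klf9 +/+ replicate 1, without Klf9 f/f replicate 2, without the series term and with either marker covariate.

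The 8 laminin chains, which join as one alpha, one beta and one gamma chain, had log2 fold changes from -0.75 to 0.14 and none was called. Lamb2, the highest of the group per kb, was at 68.8, 43.9 and 103 CPM in Klf9 +/+ against 80.9, 46.9 and 106 CPM in Klf9 f/f, a log2 fold change of 0.14 (standard error 0.23). Lama2, the alpha 2 chain of parenchymal and muscle basement membranes, differed little between genotypes, with a log2 fold change of 0.010 (standard error 0.13). It was at 28.0 to 32.4 CPM in series YTa22 and at 40.1 and 40.8 CPM in YTa32. Lama1, the alpha 1 chain of pial basement membrane, was at 9.81, 7.83 and 10.6 CPM in Klf9 +/+ and 7.86, 2.57 and 6.23 CPM in Klf9 f/f (-0.75, standard error 0.36). Lama4 and Lama5, alpha chains of vessels, were at -0.28 and -0.25, Lamc3 was at -0.35, and Lamb1 and Lamc1, the widespread beta and gamma chains, were at -0.12 and -0.10.

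The type IV chains Col4a1 and Col4a2 lie head to head on chromosome 8, and their annotated starts overlap by 22 bp. Their log2 fold changes were -0.12 and -0.43, and the ratio of Col4a1 to Col4a2 CPM was 1.56, 1.60 and 1.53 in Klf9 +/+ against 1.95, 1.79 and 2.01 in Klf9 f/f. The ratios of the genotypes did not overlap for this pair. They overlapped for the other pairs set against each other, Col1a1 with Col1a2, Col6a1 with Col6a2, Col3a1 with Col5a2, Dcn with Lum and Nid1 with Nid2. The comparison was made after the values were seen and was not tested. The nidogens, which link laminin to type IV collagen, were at -0.54 (Nid1) and -0.12 (Nid2). Col18a1, the source of endostatin, was at -0.27, and Col15a1 at -0.036 with 0.263 to 2.06 CPM. Agrn (agrin) was among the steadiest of the 43, at 53.7 to 66.4 CPM in all samples, with a log2 fold change of -0.012 (standard error 0.14).

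None of the 6 genes of fibronectin and elastic fibres was called. Eln (elastin, the core of elastic fibres) had the smallest p of the group and was at 12.7, 7.04 and 15.7 CPM in Klf9 +/+ against 9.25, 4.99 and 7.75 CPM in Klf9 f/f (log2 fold change -0.65, standard error 0.30). Fn1 (fibronectin) was at 43.9, 16.9 and 60.0 CPM in Klf9 +/+ against 30.2, 12.3 and 22.4 CPM in Klf9 f/f (-0.81, standard error 0.41). In both, Klf9 f/f replicate 1 was above Klf9 +/+ replicate 2, so the genotypes overlapped. Fbln1, the highest of the group per kb (ENSMUSG00000006369), was at 210, 170 and 200 CPM in Klf9 +/+ against 206, 179 and 199 CPM in Klf9 f/f, a log2 fold change of 0.0089 (standard error 0.14) that was slightly below 0 under DESeq2 and under upper-quartile or RLE scaling. Fbln2, Fbln5 and Fbn1 were at -0.11, 0.07 and -0.33. For Fbn1, 20.1% of the exon length is shared with a gene on the opposite strand, and the unstranded counting leaves such reads uncounted.

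Among the small leucine-rich proteoglycans, Ogn (osteoglycin, also called mimecan; ENSMUSG00000021390, chromosome 13, 49703440 to 49719869, plus strand) was called lower. It was at 50.1, 27.8 and 49.1 CPM in Klf9 +/+ against 33.8, 11.9 and 21.8 CPM in Klf9 f/f, with Klf9 f/f replicate 1 above Klf9 +/+ replicate 2. The log2 fold change was -0.90 (adjusted p = 1.00 in edgeR's quasi-likelihood test, standard error 0.36). Of the 4 genes called lower it lost the call under the most alternatives, namely DESeq2, YTa22 alone, both marker covariates, and without Klf9 +/+ replicate 1 or 3 or Klf9 f/f replicate 2 or 3. Its log2 fold change under DESeq2 was -0.92, and with each sample left out it ran from -1.48 (without Klf9 f/f replicate 1) to -0.60 (without Klf9 f/f replicate 2). Dcn was at 331, 396 and 613 CPM in Klf9 +/+ against 435, 193 and 310 CPM in Klf9 f/f (-0.47, standard error 0.29), and its neighbour Lum, 47.4 kb away, was at -0.24. Bgn was at -0.16.

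Sparc had another order of samples than the rest of its group. It was at 3890, 2636 and 1748 CPM in Klf9 +/+ against 3212, 3262 and 2431 CPM in Klf9 f/f, so that Klf9 +/+ replicate 3, the highest sample for 29 of the 38 genes, was here the lowest. The log2 fold change was 0.15 (standard error 0.19) and was not called.

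In brain matrix, Bcan and Sparcl1 were called higher in Klf9 f/f. Bcan, a lectican of perineuronal and perisynaptic matrix (ENSMUSG00000004892, chromosome 3, 87791453 to 87804278, minus strand), was at 309, 302 and 424 CPM in Klf9 +/+ against 488, 360 and 704 CPM in Klf9 f/f. Within each series every Klf9 f/f sample was above every Klf9 +/+ sample, with a log2 fold change of 0.56 (adjusted p = 0.959 in edgeR's quasi-likelihood test, standard error 0.16) that stayed at 0.45 to 0.70 with each sample left out. The call was lost without either replicate 3, in YTa22 alone and without the series term. Sparcl1 (ENSMUSG00000029309, chromosome 5, 104508130 to 104543107, minus strand) was at 2609, 2547 and 2681 CPM in Klf9 +/+ against 4512, 2744 and 3967 CPM in Klf9 f/f. The Klf9 +/+ samples were close together and Klf9 f/f replicate 2 was just above them, while the other Klf9 f/f samples were well above. The log2 fold change was 0.52 (adjusted p = 1.00 in edgeR's quasi-likelihood test, standard error 0.19), and the call was lost without Klf9 +/+ replicate 2 or 3, without Klf9 f/f replicate 1 or 3 and in YTa22 alone. The value was 0.30 without Klf9 f/f replicate 1 and 0.70 without Klf9 f/f replicate 2. Both calls were kept with the meningeal and with the endothelial and mural covariate. For Sparcl1, 6.46% of the exon length is shared with a gene on the opposite strand. Both genes are expressed by astrocytes, and the summed astrocyte markers above were 14412 to 18751 against 18005 to 22279 CPM. The part of astrocyte RNA in these differences was not tested.

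The other brain matrix genes were not called. Tnc (tenascin C, a glycoprotein of stem cell niches) was at 68.7, 39.9 and 47.7 CPM in Klf9 +/+ against 71.9, 54.9 and 77.3 CPM in Klf9 f/f (log2 fold change 0.38, standard error 0.22). Ncan was at 152, 179 and 312 against 146, 166 and 381 CPM, where the YTa32 library was highest in both genotypes (0.04). Vcan, the lectican of precursors, was the only brain matrix gene below 0, at 8.21, 8.19 and 7.55 CPM in Klf9 +/+ and 6.46, 7.18 and 6.81 CPM in Klf9 f/f (-0.23, standard error 0.19). The genotypes did not overlap for Vcan, with a narrow gap.

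Within the series, 27 of the 38 genes outside brain matrix had a log2 difference below 0 in YTa22 and 31 in YTa32, with medians of -0.24 and -0.65, and 26 of the 38 had the same sign in both. YTa32 holds 1 sample of each genotype, so its differences have no replicate check. Col5a2, Col8a1, Hspg2 and Vcan were lower in Klf9 f/f with no overlap inside either series, 4 of 43 where 5.53% of all genes tested were, and Bcan and Sparcl1 were higher with no overlap, 2 of 43 where 7.78% were. In the test of the genotype effect between series, Col8a1 and Col6a1 had an unadjusted p under 0.05, with YTa32 minus YTa22 at -1.77 and -1.40 on the log2 scale, 2 of 43 genes where 231 of all 15056 had one, but the adjusted p was 1.00 for all 43 genes in edgeR's quasi-likelihood test.

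**Figure D4:**
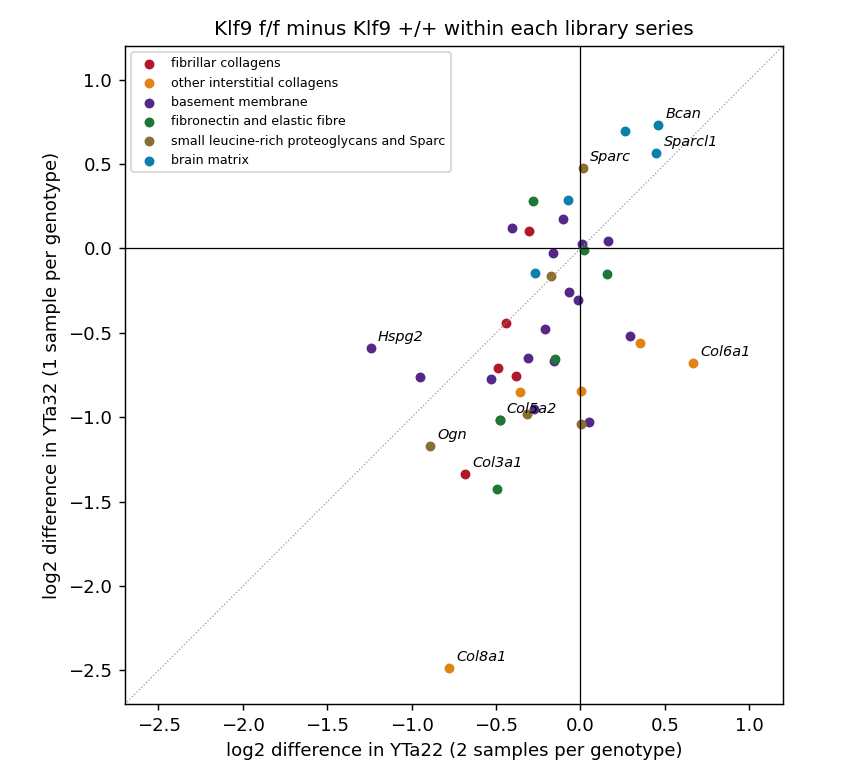
Log2 difference of each matrix gene between genotypes within series YTa22 (x axis, 2 samples per genotype) and within YTa32 (y axis, 1 sample per genotype), coloured by group, with a dotted line of equality. Col8a1 lies lowest at -2.49 in YTa32, Col6a1 is at 0.67 and -0.68, and Bcan and Sparcl1 lie above 0 on both axes.

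The promoters of the called genes are shown because Klf9 binds GC-rich motifs through its zinc fingers, and because these genes are the ones the comparison turns on. RefSeq promoters (GRCm38.p6) were listed for 30 of the 43 genes, Col5a2 and Sparcl1 not among them. The 250 bases before the start site were placed in mm9 by exact match, and bases inside the annotated gene were left out for Hspg2. Each is 5′ to 3′ on the gene's strand, with the motifs GGGCGG (GC box) and CACCC on either strand in capitals. Col8a1 is from chr16:57754851-57755100 (minus strand), Hspg2 from chr4:137024468-137024633 (plus), Ogn from chr13:49703134-49703383 (plus) and Bcan from chr3:87804279-87804528 (minus).
Col8a1: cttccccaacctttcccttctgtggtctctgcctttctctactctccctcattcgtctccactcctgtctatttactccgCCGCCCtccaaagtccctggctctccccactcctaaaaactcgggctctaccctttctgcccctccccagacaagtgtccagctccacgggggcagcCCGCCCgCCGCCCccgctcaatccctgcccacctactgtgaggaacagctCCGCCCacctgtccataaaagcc
Hspg2: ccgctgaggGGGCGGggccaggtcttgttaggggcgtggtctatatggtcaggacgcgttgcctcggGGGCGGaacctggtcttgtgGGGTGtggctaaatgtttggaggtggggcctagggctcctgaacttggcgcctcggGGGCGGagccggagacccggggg
Ogn: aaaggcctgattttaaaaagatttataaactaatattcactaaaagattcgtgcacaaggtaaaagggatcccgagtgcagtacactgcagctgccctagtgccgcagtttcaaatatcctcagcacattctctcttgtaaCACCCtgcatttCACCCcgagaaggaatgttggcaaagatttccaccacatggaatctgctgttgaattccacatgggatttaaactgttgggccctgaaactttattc
Bcan: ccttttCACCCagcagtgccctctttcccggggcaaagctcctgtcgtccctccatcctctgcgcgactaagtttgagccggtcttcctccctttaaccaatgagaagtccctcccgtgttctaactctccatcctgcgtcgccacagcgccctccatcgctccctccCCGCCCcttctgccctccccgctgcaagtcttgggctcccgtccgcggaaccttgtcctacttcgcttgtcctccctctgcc
The stretches hold 4, 3, 0 and 1 GC boxes and 0, 1, 2 and 1 CACCC motifs, in that order. Of the 30 genes, 21 had a GC box in the full 250 bases (70.0%) and 22 a CACCC motif (73.3%), where 56.4% and 58.4% of 13153 promoters of tested genes and 33.0% and 52.1% of all 32536 in the table did. For the 30 genes the promoter placed nearest the annotated start was taken. The other shares count every distinct promoter, so their basis differs, and the difference in shares was not tested. A match of letters is a description only, since binding was not measured in these samples.

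Other matrix genes were listed from general knowledge of the pathway. Over all genes tested, 2.50% were called lower and 1.82% higher. Of 21 further collagen and laminin chains tested (32 listed), Col8a2 was called lower at -1.46 (standard error 0.40) and none higher, and the highest of them, Col9a3, was at 123 to 190 CPM with -0.06. Of 21 genes for collagen folding, processing and cross-linking (23 listed), 2 were called lower and none higher. These were Pcolce2, an enhancer of procollagen cleavage, at -1.00 (standard error 0.32), and Lox, the lysyl oxidase that cross-links collagen and elastin, at -1.07 (standard error 0.42). Lox was low, at 2.20, 0.87 and 6.14 CPM in Klf9 +/+ against 0.90, 0.98 and 1.74 CPM in Klf9 f/f. The genotypes overlapped for Lox, and Klf9 +/+ replicate 3 was far above the rest. The highest gene of this list, Pcolce, was at -0.39.

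Of 15 matrix receptors other than integrins, Gpc5, a glypican, was called higher at 0.38 (standard error 0.15), and the highest of them, the collagen receptor Ddr1, was at 0.15. Of 15 proteases and inhibitors (16 listed), the aggrecanase gene Adamts5 was called lower and Timp4, an inhibitor of metalloproteinases, higher at 0.47 (standard error 0.13). Adamts5 was at 0.141 to 1.66 CPM and passed the filter only through Klf9 +/+ replicate 3, so its call rests on that selection. Timp4 was at 85.3, 71.3 and 57.4 CPM in Klf9 +/+ against 102, 105 and 86.8 CPM in Klf9 f/f, with no overlap, while Timp3, the highest of the list, was at -0.21. None of 9 genes for hyaluronan, link proteins and other lecticans (12 listed) was called, and Cspg5, the highest, was at 0.30. The 5 lists had medians from -0.11 to 0.27.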

How the data were processed

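Ribosome-bound mRNA was profiled in 3 Klf9 +/+ and 3 Klf9 f/f samples. By the study's methods, the authors mapped reads with STAR to mm9 and used the unstranded mode of HTSeq for the counts per gene. The deposited values are whole-number counts that were not normalized, as the files show. The HTSeq summary lines were left out here, and they hold reads in no gene (6.33% to 12.2% of all listed), ambiguous between genes (1.35% to 2.64%) or not uniquely aligned (7.63% to 13.6%).

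The filter kept genes that exceeded 1 CPM in any sample, and TMM-normalized counts were then fitted by the quasi-likelihood method of edgeR 4.0.16 (R 4.3.3) on library series and genotype, with 3 residual degrees of freedom. The script was tested on simulated data. Symbols came from GENCODE M1 (37205 of 37620 genes), and exon length is the union of annotated exons. The labels do not say that replicates are separate litters, so p-values measure the spread between these pools. The genes and lists were chosen with earlier results of these data known. All 43 genes are given, with values per sample for called genes, the highest of each group per kb, the smallest p of a group without calls, and some others chosen after their values were seen. From the other pathway lists the called genes and the highest are named, and from marker lists the 3 highest, apart from genes that are not reported here. Alternatives included DESeq2 1.42.0, other scalings and filters, each sample left out, YTa22 alone and marker covariates. Figures used matplotlib 3.10.9.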

Additional observations from a re-analysis of the deposited data

How the results depend on the processing

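No member passed an adjusted p under 0.05 except with no filter beyond 1 count, where Col3a1, Col8a1, Hspg2, Fn1, Ogn and Bcan did. In that fit 334 of 25153 genes tested passed, against 0 of 15056 in the main fit. None of the 6 called genes changed direction under any alternative. Upper-quartile scaling and the filter of 1 CPM in 3 samples kept all 6 calls. RLE scaling kept them and added Col3a1. DESeq2 lost Ogn and added Col3a1, Lama1 and Eln. Series YTa32 has 1 sample per genotype and the fewest reads, so its differences have no spread of their own. The causes of the shifts were not tested.

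Against 4 members called lower, 2 higher, 376 genes lower and 274 higher, the fit without the series term gave 1, 1, 163 and 50. YTa22 alone gave 1, 1, 202 and 163, the meningeal covariate 1, 6, 746 and 804, and the endothelial and mural covariate 1, 6, 759 and 703. No filter beyond 1 count gave 14 members lower, with 926 genes lower and 513 higher of 25153 tested (3.68% and 2.04%). The likelihood-ratio test gave 7 members lower, with 447 genes lower and 290 higher of 15056 tested (2.97% and 1.93%). DESeq2 called 6 members lower, with 398 genes lower and 277 higher. The brain matrix median was 0.22 in YTa22 alone, 0.67 with the meningeal covariate and 0.69 with the endothelial and mural one. The median of the 38 other genes was 0.024 and 0.059 with these covariates, which are not independent of genotype. With each sample left out, members called lower ranged from 1 to 21, members higher from 1 to 4, genes lower from 209 to 719, genes higher from 130 to 493, the median of the 38 genes from -0.70 to -0.083 and the brain matrix median from 0.22 to 0.53.

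Single genes that were not called changed sign as follows, in log2 fold change. Fbln1 was at -0.0016 under DESeq2, -0.00094 under upper-quartile and -0.0016 under RLE scaling. In YTa22 alone, Col6a2 was at 0.15, Col18a1 at 0.11, Lama2 at -0.0018, Nid2 at 0.050, Lum at 0.16, Sparc at -0.018 and Ncan at -0.083. With the meningeal covariate, Col1a1 was at 0.018, Col5a1 at 0.095, Col6a2 at 0.39, Col4a1 at 0.28, Col15a1 at 0.13, Col18a1 at 0.26, Lama2 at -0.038, Lama4 at 0.31, Lamc1 at 0.16, Lamc3 at 0.33, Nid2 at 0.52, Agrn at 0.058, Fn1 at 0.029, Lum at 0.22, Bgn at 0.25 and Ncan at -0.11. With the endothelial and mural covariate, Col5a1 was at 0.20, Col6a2 at 0.39, Col4a1 at 0.37, Col4a2 at 0.060, Col18a1 at 0.35, Lama2 at -0.076, Lama4 at 0.40, Lama5 at 0.042, Lamc1 at 0.20, Lamc3 at 0.33, Nid2 at 0.48, Agrn at 0.085, Fn1 at 0.30, Fbln2 at 0.0049, Eln at 0.057, Lum at 0.12, Bgn at 0.32 and Ncan at -0.16. With each sample left out, Col6a1 ranged from -0.19 to 0.72, Col6a2 from -0.74 to 0.15, Col16a1 from -0.33 to 0.44, Col4a1 from -0.36 to 0.045, Col15a1 from -0.39 to 0.28, Col18a1 from -0.69 to 0.11, Lama2 from -0.046 to 0.074, Lamb1 from -0.26 to 0.058, Lamb2 from -0.13 to 0.33, Nid2 from -0.83 to 0.21, Agrn from -0.11 to 0.085, Fbln1 from -0.078 to 0.097, Fbln2 from -0.30 to 0.074, Fbln5 from -0.16 to 0.20, Lum from -0.91 to 0.16, Bgn from -0.39 to 0.028, Sparc from -0.018 to 0.37 and Ncan from -0.084 to 0.15.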
